A study of Arabidopsis thaliana with 20 samples.

Results

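Stem reads of 18, 19 and 20 nt were examined in Arabidopsis thaliana plants that carry a hairpin RNA transgene against EIN2 (AT5G03280), a membrane protein of ethylene signalling. They were taken by read length and stem, not by their counts. Sense reads came from the stem that the hairpin carries, and antisense reads from the unaltered (WT) stem. Over 15 libraries they numbered 596847 of 3748603 reads of 18 to 25 nt, or 15.9%, against 1886992 reads of 21 nt. The 18-nt class held 65409 reads, the 19-nt class 164434 and the 20-nt class 367004.

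Every group is 3-week-old whole plants of ecotype Columbia with a hairpin transgene. The stem was either altered to form G:U wobble pairs (hpEIN2[G:U], 8 libraries) or perfectly paired (hpEIN2[WT], 7 libraries). A first count table held hpEIN2[G:U] libraries 12 and 13 and hpEIN2[WT] libraries 15 and 17 in Columbia. A second held hpEIN2[G:U] libraries 2 and 18 and hpEIN2[WT] libraries 2 and 3 in the nrpd1a mutant, and hpEIN2[G:U] libraries 4 and 6 and hpEIN2[WT] libraries 10 and 11 in the ocp11 mutant. It also held hpEIN2[G:U] libraries 12 and 13 and hpEIN2[WT] library 15 in Col-0. NRPD1a is the largest subunit of RNA polymerase IV and ocp11 is an allele of ARGONAUTE4, both of the pathway that makes and uses 24-nt siRNAs. The labels give neither the promoter of the transgene nor whether a library is 1 plant, a pool or 1 transgene line. None of the libraries used came from plants without a hairpin, and a background of stem-matching reads is therefore unknown.

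Dicer-like (DCL) enzymes cut double-stranded RNA at set lengths. In Arabidopsis, DCL4 makes 21-nt, DCL2 22-nt and DCL3 24-nt siRNAs, and the methyltransferase HEN1 then protects their 3′ ends. Small RNAs without that mark are known to be shortened by exonucleases, and broken transcripts also give short fragments. Which process made the reads counted here was not tested. The stem sequence is not given in the sources used here, so no read sequence or position is shown.

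Libraries held between 2073 (nrpd1a hpEIN2[WT] library 3) and 127471 (ocp11 hpEIN2[G:U] library 6) reads of 18 to 20 nt. The widest 95% Wilson interval of a share reached 2.15 percentage points to either side, and such intervals cover counting error only. The 2 hpEIN2[WT] libraries of the first table stood apart, with 27.5% (library 15) and 27.1% (library 17) of both-strand reads in the short class. The other 13 libraries held 12.6% to 22.7%. Results that rest on the first table are therefore also given without it or by background.

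The short class leaned to its longest member. Reads rose in number through 18, 19 and 20 nt in 29 of the 30 combinations of library and strand. In the remaining combination, sense reads of the Col-0 hpEIN2[WT] library, there were more 19-nt than 20-nt reads (1.08 to 1). Among all 8 lengths the 21-nt class ranked number 1 everywhere, and the 20-nt class number 2 in 7 combinations and number 3 in 16. Among sense reads, 20 nt made up 66.8% to 70.8% of the short class with the G:U stem, against 44.1% to 62.5% with the WT stem. Among antisense reads it made up 58.3% to 67.8% with the G:U stem, against 48.0% to 60.4% with the WT stem. The sense ranges of the hairpins did not overlap and the antisense ranges did.

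Short reads were a smaller part of the sense strand with the G:U than with the WT hairpin. In the first table they were 23.2% and 16.6% of sense reads of 18 to 25 nt in G:U libraries 12 and 13, against 40.8% and 29.0% in WT libraries 15 and 17. In Col-0 they were 15.4% and 18.0% in the G:U libraries and 18.5% in the WT library (95% Wilson interval 18.3 to 18.7). The groups did not overlap in either table's Columbia plants, but the gap was far wider in the first. Sense reads of 24 nt, which are in the total, were 14.3% and 14.8% in first-table G:U libraries 12 and 13. WT libraries 15 and 17 had 4.94% and 11.0%. In Col-0 they were 30.7% and 28.1% with the G:U hairpin, against 22.4% with the WT hairpin. In nrpd1a they were 22.1% and 21.4%, against 13.5% and 11.4%. In ocp11 they were 16.3% and 24.6%, against 17.5% and 26.2%, with overlap. In whole plants, a change in some cells and a smaller change in all cells cannot be told apart.

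In nrpd1a the sense short share was 12.9% and 14.9% with the G:U hairpin, against 17.0% and 18.98% with the WT hairpin. In ocp11 it was 15.1% and 13.6% with the G:U hairpin, against 18.3% and 14.7% with the WT hairpin, and the groups overlapped. Over 4 strata (first-table Columbia, Col-0, nrpd1a and ocp11) the sense short share fell by 5.77 percentage points, to 16.2% with the G:U hairpin against 22.0% with the WT hairpin. The SD of the difference over strata was 6.23 (n = 4). Plants without a mutation enter once per table, so this SD, here and below, also holds the difference between the tables. With the same-numbered libraries of the tables averaged into 1 Columbia stratum, the difference was -5.76 points (exact adjusted p = 0.0317). The exact stratified permutation test, two-sided, gave p = 0.00617 and an adjusted p of 0.0123. Sense reads of the hairpins match stems of different sequence, so stem sequence and wobble pairing cannot be told apart in this difference.

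This call rested partly on the first table. Within the second table the G:U libraries differed from the WT libraries by -2.69 percentage points (adjusted p = 0.0741, exact stratified permutation test). It was -4.95 without first-table G:U library 13 and -5.12 without both WT libraries numbered 15, and neither passed (adjusted p = 0.0802 and 0.0635, same exact test). Leaving out both libraries numbered 15, here and below, also drops the Col-0 stratum, which then has no WT library. Fewer arrangements then remain for the test.

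On the antisense strand no difference between the hairpins passed the threshold. The shares are of antisense reads of 18 to 25 nt. Reads of 23 nt made up 8.54% to 25.4% of that total with the G:U hairpin and 1.38% to 8.80% with the WT hairpin. Short reads were 20.5% and 14.6% of antisense reads in first-table G:U libraries 12 and 13, against 19.4% and 24.6% in WT libraries 15 and 17. In Col-0 they were 19.4% and 21.2% with the G:U hairpin, against 13.1% (95% Wilson interval 12.9 to 13.2) with the WT hairpin. The groups overlapped in the first table, and in Col-0 both G:U libraries lay above the WT library.

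In nrpd1a the antisense short share was 16.1% and 17.7% with the G:U hairpin, against 14.2% and 14.3% with the WT hairpin. In ocp11 it was 12.2% and 8.78% with the G:U hairpin, against 15.3% and 13.5% with the WT hairpin. The G:U libraries thus lay above the WT libraries in nrpd1a and below them in ocp11. G:U libraries averaged 16.3%, against 15.9% in WT libraries. The difference of 0.383 percentage points had an SD of 5.58 over the 4 strata (p = 0.849, adjusted p = 0.890, exact stratified permutation), so that differences of some points in either direction lie within this spread.

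By single length, the sense difference lay in the 19-nt and 18-nt reads. In first-table plants, 19-nt reads were 5.24% and 3.39% of sense reads with the G:U hairpin (libraries 12 and 13), against 17.2% and 7.40% with the WT hairpin (libraries 15 and 17). In Col-0 they were 3.52% and 4.03% with the G:U hairpin, against 8.79% with the WT hairpin. The WT libraries numbered 15 thus had the highest 19-nt sense share in each table.

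In nrpd1a the 19-nt sense share was 2.66% and 3.18% with the G:U hairpin, against 6.11% and 7.01% with the WT hairpin. In ocp11 it was 3.29% and 3.18% with the G:U hairpin, against 5.69% and 4.96% with the WT hairpin. The hairpins did not overlap within any of the 4 strata. Over them the 19-nt sense share fell by 4.68 percentage points, to 3.56% with the G:U hairpin against 8.24% with the WT hairpin (SD over strata 2.50, n = 4). The p was 0.00154, the smallest that this exact stratified permutation test can give, and the adjusted p was 0.00617. The call held within the second table (-3.58, adjusted p = 0.0370) and without both WT libraries numbered 15 (-2.94, adjusted p = 0.0222) in the same exact test.

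The 18-nt sense share fell by 0.923 percentage points, to 1.53% with the G:U hairpin against 2.46% with the WT hairpin (exact stratified permutation test, p = 0.00463, adjusted p = 0.0123). It did not pass within the second table (-0.576, exact adjusted p = 0.0741). At 20 nt the sense share averaged 11.1% in G:U libraries and 11.3% in WT libraries. This difference of -0.165 percentage points had an SD of 3.59 over strata (exact stratified permutation p = 0.890). With only 20-nt reads counted as short, the sense short share therefore did not differ past the threshold. By stratum, the 20-nt sense difference (G:U minus WT) was -5.05 points in the first table and 3.58 in Col-0, neither with overlap, and 0.385 in nrpd1a and 0.422 in ocp11, both with overlap.

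None of the single antisense lengths passed. The G:U minus WT differences were -0.654 percentage points at 18 nt, -0.200 at 19 nt and 1.24 at 20 nt (exact stratified permutation tests, adjusted p = 0.213, 0.867 and 0.465). At 18 nt the direction was the same in the first table, nrpd1a and ocp11 and the opposite in Col-0. Without the Col-0 libraries, or without its WT library alone, which drops the same stratum, the 18-nt antisense difference was -1.07 and passed (exact adjusted p = 0.0185). It also passed with same-numbered libraries averaged (-0.801, exact adjusted p = 0.0185) and without both WT libraries numbered 15 (-0.990, exact adjusted p = 0.0222).

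The number of 19-nt per 20-nt sense reads, a ratio chosen after its values were seen and not tested, separated the hairpins completely. It was 0.288 to 0.349 in the 8 G:U libraries, with a median of 0.321. The 7 WT libraries ran from 0.409 in first-table library 17 to 1.08 in the Col-0 library, with a median of 0.696. First-table WT library 15 had 0.891. The other WT libraries had 0.746 and 0.696 in nrpd1a and 0.617 and 0.547 in ocp11. Among antisense reads the same ratio ran from 0.332 to 0.520 in G:U libraries and from 0.394 to 0.610 in WT libraries, which overlap.

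Antisense reads, which are complementary to EIN2 mRNA, were a much smaller part of the short class in G:U than in WT plants. The same held at 21 nt, where all 8 G:U libraries (12.9% to 25.5%, median 18.5%) also lay below all 7 WT libraries (47.2% to 74.2%, median 55.1%), and at 22, 24 and 25 nt, so the separation was not particular to short reads. In first-table plants the antisense share of 18 to 20 nt reads was 15.3% and 12.2% in G:U libraries 12 and 13, against 43.6% and 37.7% in WT libraries 15 and 17. In Col-0 it was 26.2% and 21.3% with the G:U hairpin, against 57.5% (95% Wilson interval 57.0 to 57.9) with the WT hairpin. The Col-0 WT library alone had more antisense than sense short reads.

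In nrpd1a the antisense share of short reads was 23.7% and 26.7% with the G:U hairpin, against 46.8% and 46.6% with the WT hairpin. In ocp11 it was 16.0% and 14.7% with the G:U hairpin, against 41.9% and 44.2% with the WT hairpin. All 8 G:U libraries lay below all 7 WT libraries. The ratio of antisense to sense short reads was 0.138 to 0.364 with the G:U stem (median 0.231), against 0.605 to 1.35 with the WT stem (median 0.793).

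The antisense share of short reads fell by 27.4 percentage points, to 19.5% with the G:U hairpin against 47.0% with the WT hairpin (SD of the difference over strata 5.02, n = 4). Its exact stratified permutation p was again the smallest possible (0.00154, adjusted p = 0.00617). The difference was -27.6 points within the second table (exact adjusted p = 0.0370). In the first table alone it was -26.9, where an exact test of 2 against 2 libraries has a smallest p of 0.333.

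Set against the 21-nt class, short sense reads were again fewer with the G:U hairpin. Per 100 sense reads of 21 nt there were 46.1 and 29.7 short sense reads in first-table G:U libraries 12 and 13, against 97.5 and 64.7 in WT libraries 15 and 17. In Col-0 there were 38.9 and 45.8 with the G:U hairpin, against 44.9 with the WT hairpin. First-table WT library 15 thus had nearly as many short as 21-nt sense reads, and the Col-0 groups overlapped.

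In nrpd1a there were 23.2 and 27.8 short per 100 sense reads of 21 nt with the G:U hairpin, against 28.8 and 32.1 with the WT hairpin. In ocp11 there were 26.5 and 28.4 with the G:U hairpin, against 35.2 and 32.2 with the WT hairpin. On the log2 scale the sense ratio fell by 0.44, or to 0.739 times that of the WT hairpin (SD over strata 0.45, n = 4). It passed the threshold (exact stratified permutation test, p = 0.00617, adjusted p = 0.0123). Within the second table the log2 difference was -0.21, and without both WT libraries numbered 15 it was -0.45, and neither passed (exact adjusted p = 0.0741 and 0.0556). With 20-nt reads alone the log2 difference was -0.0064, and the call ended (exact adjusted p = 0.972).

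Per 100 antisense reads of 21 nt there were 46.1 and 27.8 short antisense reads in first-table G:U libraries 12 and 13, against 26.2 and 43.8 in WT libraries 15 and 17. In Col-0 there were 40.2 and 45.7 with the G:U hairpin, against 31.1 with the WT hairpin. The G:U libraries were the higher ones in Col-0, and in the first table the groups overlapped.

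In nrpd1a there were 35.1 and 37.7 short per 100 antisense reads of 21 nt with the G:U hairpin, against 20.6 and 20.8 with the WT hairpin. In ocp11 there were 22.2 and 21.7 with the G:U hairpin, against 25.5 and 24.7 with the WT hairpin. The log2 difference of 0.29 did not pass (SD over strata 0.44, exact stratified permutation test, p = 0.131, adjusted p = 0.213). By stratum it was 0.08 in first-table plants, 0.46 for Col-0, 0.81 for nrpd1a and -0.20 for ocp11. In nrpd1a, 21-nt reads were 45.9% and 47.0% of antisense reads with the G:U hairpin, against 68.7% and 69.1% with the WT hairpin. The higher ratio there alone therefore does not show a gain of short reads. In Col-0 the 21-nt share was 48.3% and 46.4% with the G:U hairpin, against 42.1% with the WT hairpin.

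In WT plants the short class was less antisense than the 21-nt class, and in G:U plants no such gap passed the threshold. The antisense share of short reads minus that of 21-nt reads had a mean of 0.731 percentage points over the 8 G:U libraries, and was negative in 4 of them (exact paired permutation test, two-sided, p = 0.617). It was -2.55 and -3.72 in ocp11 libraries 4 and 6, and 6.65 and 5.55 in nrpd1a libraries 2 and 18. In first-table Columbia and Col-0 plants it lay between -0.698 and 0.654. Over the 7 WT libraries the mean was -11.8 points and every library was negative. The p of 0.0156 was the smallest that 7 libraries allow in this exact paired permutation test, and the adjusted p over both hairpins was 0.0312.

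Among WT libraries this gap ran from -30.6 points in first-table library 15 to -6.62 in ocp11 library 11, with a median of -8.66. In library 15, 43.6% of short reads were antisense against 74.2% of its 21-nt reads. Without that library the WT mean was -8.63 points (exact paired permutation p = 0.0312, the smallest that 6 libraries allow, adjusted p = 0.0625). In the 5 WT libraries of the second table the gap ran from -10.8 to -6.62 points, with a median of -8.29. The gap differed between the hairpins by 12.1 points (SD over strata 6.92, n = 4), at the smallest p of the exact stratified permutation test (0.00154, adjusted p = 0.00617). By stratum the gap differed by 19.7 points for first-table Columbia, 8.96 for Col-0, 15.6 for nrpd1a and 4.14 for ocp11, all in 1 direction.

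The lower antisense share than at 21 nt was not limited to the short reads of WT plants. In all 7 WT libraries it was lower at 18, 19, 20 and also 22 nt than at 21 nt. Its medians were 49.9% at 18 nt, 39.8% at 19 nt, 45.6% at 20 nt and 39.2% at 22 nt. In G:U libraries it was lower than at 21 nt in 2 of 8 libraries at 18 nt, 2 at 19 nt, 6 at 20 nt and 5 at 22 nt. At 23, 24 and 25 nt it was lower than at 21 nt in 5, 6 and 3 of the 7 WT libraries. In G:U libraries it was lower in 7 of 8 at 24 nt (median 13.6%) and 1 of 8 at 25 nt, but in 0 of 8 at 23 nt (median 45.6%). The 19-nt reads were thus the least antisense of the short lengths in WT plants by median, and the most antisense in G:U plants, with a median of 22.1% against 20.8% at 18 nt and 17.7% at 20 nt.

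The mutants ask whether loss of RNA polymerase IV or of ARGONAUTE4 alters hairpin siRNAs. Relative to 21-nt reads, short sense reads lay lower in all 8 mutant libraries than in Col-0 with the same hairpin (values above). The 21-nt class was itself a larger part of sense reads in those 8 libraries. Under the G:U hairpin, Col-0 had 39.6% and 39.3% of sense reads at 21 nt. That share reached 55.6% and 53.5% in nrpd1a libraries 2 and 18 and 57.2% and 47.7% in ocp11 libraries 4 and 6. Under the WT hairpin, Col-0 had 41.2%, nrpd1a 59.3% and 59.2%, and ocp11 52.1% and 45.7%. The lower ratio alone therefore does not show a loss of short reads. For nrpd1a and ocp11 as 1 group the sense log2 ratio differed by -0.68 among G:U plants and by -0.49 among WT plants, a mean of -0.58, or 0.667 times that of Col-0. The p of 0.0133 was the smallest that this exact stratified permutation test can give, and the adjusted p of 0.0667 over 5 measures did not pass. The antisense log2 ratio differed by -0.60 among G:U plants and -0.45 among WT plants, a mean of -0.52 (exact stratified permutation p = 0.04, adjusted p = 0.1).

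As shares of their strand, short reads did not differ past the threshold between mutants and Col-0. Among G:U plants, however, the share of each strand was lower in all 4 mutant libraries than in both Col-0 libraries. The mean difference was -1.91 percentage points among sense reads and -2.68 among antisense reads (exact stratified permutation tests, adjusted p = 0.183 and 0.227). The sense difference was -2.58 among G:U plants (14.1% against 16.7%) and -1.24 among WT plants, where the groups overlapped. The antisense difference was -6.60 among G:U plants (13.7% against 20.3%) and 1.25 among WT plants, where Col-0 was 1 library. The antisense share of short reads differed by -8.02 points (exact stratified permutation p = 0.0667, adjusted p = 0.111), by -3.44 among G:U plants and -12.6 among WT plants.

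When the controls also took in the Columbia libraries of the first table, 4 of the 5 differences passed the threshold, at -8.17 (sense short share), -4.95 (antisense short share), -0.81 (sense log2 ratio) and -0.50 (antisense log2 ratio). The antisense share of short reads then differed by 0.0882. These added controls bring in the first table, whose WT libraries stood apart, so table and background cannot be told apart in them. If the library numbers mark transgene lines, background and line cannot be told apart either.

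Single mutants gave 18 arrangements and a smallest p of 0.0556 in the exact stratified permutation test, so no single mutant could pass. In nrpd1a the log2 ratio to 21-nt reads differed from Col-0 by -0.65 among sense and -0.41 among antisense reads. In ocp11 it differed by -0.52 and -0.64. Each of these 4 values had the smallest p. The antisense share of short reads differed by -4.66 percentage points in nrpd1a (exact p = 0.333) and by -11.4 in ocp11 (exact p = 0.0556).

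Under the G:U hairpin the antisense short share was lower in ocp11 than in nrpd1a, and under the WT hairpin the mutants overlapped. With the G:U hairpin it was 16.9% ± 1.13 for nrpd1a plants and 10.5% ± 2.40 for ocp11 plants, against 20.3% ± 1.25 for Col-0 plants (SD, n = 2 each). With the WT hairpin it was 14.3% ± 0.116 for nrpd1a plants and 14.4% ± 1.24 for ocp11 plants (SD, n = 2 each), against 13.1% for the Col-0 library. The difference between the mutants was not tested. Antisense reads of 23 nt, which are in the total, were 8.54% and 25.4% in ocp11 G:U libraries 4 and 6. They were 13.4% and 13.2% in nrpd1a G:U libraries 2 and 18.

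The numbers 15, 12 and 13 occur in both tables. In WT library 15 the sense short share was 18.5% in the second table, against 40.8% in the first. G:U library 12 had 15.4% in the second table against 23.2% in the first, and G:U library 13 had 18.0% in the second against 16.6% in the first. Library 13 thus moved the other way from the rest. The mean difference was -9.56 percentage points (exact permutation test of 3 against 3, p = 0.3, where the smallest possible is 0.1).

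In WT library 15 the 20-nt sense share was 8.15% in the second table, against 19.3% in the first. Its 19-nt sense share was 8.79% in the second, against 17.2% in the first. The antisense share of short reads was higher in the second table at all 3 numbers, by 13.9 points for number 15 (WT), 10.9 for number 12 (G:U) and 9.16 for number 13 (G:U). Its mean difference was 11.3 points (exact permutation p = 0.5). This test permutes over both hairpins, whose strand shares lie far apart, and so says little about the tables. Leaving out the first-table WT library 15 gave 21.3 points, and without the Col-0 WT library 15 the difference was 0.0563 points. The sense short share difference of -9.56 was -14.7 without first-table G:U library 13 and -2.59 without first-table WT library 15.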

How the data were processed

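The authors deposited raw read counts for each library by stem, strand and read length (18 to 25 nt), according to the file headers. The submitters' processing notes name cutadapt, Bowtie 1.0 and TAIR10. The mismatch setting is, like the handling of reads that match both stems, not given in the sources used here. Sense reads of the hairpins are counted on stems of different sequence. No library totals are in the tables, so measures were shares and ratios within a library, not abundances. Of 20 labelled samples, 15 were used, and the 5 with a GUS hairpin were not analysed here.

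Groups followed sample titles. For ocp11 libraries with the G:U hairpin the genotype label says WT hairpin, but libraries 4 and 6 had 63805 and 108722 short sense reads on the GU stem against 91 and 485 on the WT stem. Of the first-table libraries used, 3 (WT 17, G:U 12 and 13) name another target gene in 1 label. The nrpd1a WT row numbered 13 was taken as the title's number 3. The 4 entries per library of the second table were summed as runs of 1 library. In a chi-square test over short-length classes by strand, 2 of 11 libraries had p under 0.05 (lowest p = 4.04e-05, adjusted p = 0.000444, ocp11 G:U library 6), while the short share of both strands differed between runs of a library by at most 1.17 percentage points. The labels do not call libraries separate plants, so p-values measure only the spread between libraries, which may be technical.

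Each difference between hairpins is the mean over 4 strata (first-table Columbia and, in the second table, Col-0, nrpd1a and ocp11) of the difference in group means, and each between mutants and Col-0 the mean over the hairpins. They were tested by exact permutation within those strata, two-sided, with Benjamini-Hochberg adjustment over 12 measures (hairpins) or 5 (backgrounds, tables) and a threshold of 0.05. The test was checked on simulated data. Python 3.11.15, numpy 2.4.6, scipy 1.17.1 and statsmodels 0.14.6 were used. The tables hold no genes: all members are described. Lengths, measures and tests were chosen with earlier results of these data known. Alternatives changed the stem, lengths, denominator, runs, libraries, strata and controls.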

Additional observations from a re-analysis of the deposited data

Results flagged for a closer look

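Several differences between the hairpins ran in opposite directions in different backgrounds or tables, with no overlap of the groups within each. None of these contrasts was tested, and Col-0 holds 1 WT library. The antisense short share differed (G:U minus WT) by 7.21 percentage points in Col-0 and 2.65 in nrpd1a, and by -3.94 in ocp11. The antisense log2 ratio of short to 21-nt reads differed by 0.46 in Col-0 and 0.81 in nrpd1a, and by -0.20 in ocp11. In nrpd1a the 21-nt share of antisense reads was itself lower with the G:U hairpin (values above). The 19-nt antisense share differed by 1.26 points in Col-0 and 1.14 in nrpd1a, and by -2.02 in ocp11. The 18-nt antisense share differed by 0.597 points in Col-0, against -2.51 in the first table, -0.354 in nrpd1a and -0.353 in ocp11. The 20-nt sense share differed by 3.58 points in Col-0 and -5.05 in the first table.

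Short reads were also counted on the stem that was not used above. With the G:U hairpin, 0.755% of short sense reads by median lay on the WT stem (0.142% to 1.63%, 50 to 485 reads). A median of 0.703% of short antisense reads lay on the GU stem (0.0471% to 1.31%, 1 to 245 reads, above 3 reads in 7 of 8 libraries). No control library without a hairpin was at hand.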

How the results depend on the processing

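The fall of the antisense share of short reads and its gap to 21-nt reads passed under each alternative except the first table alone (-26.9 and 19.7), which cannot pass. There the sense short share differed by -14.98, its log2 ratio by -1.10, the antisense short share by -4.39 and 20-nt antisense by -0.704. In the second table alone the sense short share (-2.69) and log2 ratio (-0.21) lost their calls, and 20-nt sense (1.46) and 19-nt antisense (0.127) turned. Without both WT libraries numbered 15, chosen after seeing the data, the sense short share (-5.12) and log2 ratio (-0.45) lost theirs, and antisense short (-2.76) and 20-nt antisense (-1.06) turned. With 20 nt alone, the sense short share (-0.165) and log2 ratio (-0.0064) lost theirs, and the G:U strand gap (-0.509) and the table difference in antisense short (0.813) turned. With 18 and 19 nt alone, antisense short turned between hairpins (-0.854) and in nrpd1a (0.418). Antisense short also turned without the Col-0 libraries (-1.89, with 20-nt antisense -0.134) and with same-numbered libraries averaged (-0.915). With first-table controls, 4 mutant differences gained calls (-8.17, -4.95, -0.81, -0.50), and the antisense share of short reads turned for both mutants (0.0882) and nrpd1a (3.45). The cause was not tested.

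With single libraries left out, the hairpin difference ran from -7.24 to -4.29 for sense short, -1.89 to 1.11 for antisense short, -1.41 to 0.297 for 20-nt sense, -0.688 to 0.118 for 19-nt antisense and -0.134 to 1.93 for 20-nt antisense. The strand gap ran from -12.6 to -8.63 in WT libraries, where 6 libraries cannot pass after adjustment, and from -0.115 to 1.37 in G:U libraries. The nrpd1a difference in antisense share of short reads ran from -5.87 to 1.47. Table differences ran from -2.03 to 2.14 (antisense short) and -0.64 to 0.22 (sense log2 ratio). No ocp11 difference turned. Of the G:U libraries, numbers 12 and 13 recur in both tables. Their deviations correlated at -0.661 over 16 classes, which rests on 1 contrast and does not settle whether numbers pair the libraries. With the replicate block the sense short share differed by -9.56 between tables, as it did unblocked. No measure could pass, with the numbers as given or crossed, since the exact paired permutation test of 3 pairs cannot go below p = 0.25. Shares resting on few reads, as in nrpd1a WT library 3, are limited by depth.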
